A study of Mus musculus with 6 samples.

Results

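The genes that encode the extracellular matrix and the enzymes that cross-link or cut it were followed in mouse liver after a single large dose of ethanol. Members were chosen by symbol: collagen chains (Col), laminin chains (Lama, Lamb, Lamc), matrix metalloproteinases (Mmp), tissue inhibitors of metalloproteinases (Timp), lysyl oxidases (Lox, Loxl), fibrillins (Fbn) and the ADAMTS proteases, with pseudogenes left out. The rule found 98 of the 28880 genes in the deposited table, and it used no measured value. Of these, 75 had enough counts to be tested and 23 did not. Mmp21 and Col6a4 had no count in any library, and the highest count of any untested member was 32.

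Bulk RNA sequencing of whole liver was compared between 3 ethanol and 3 control male wild-type C57BL/6J mice aged 6 to 8 weeks. Ethanol mice were fasted for 12 h, received 50% (v/v) ethanol once by oral gavage at 6 g/kg, and were sampled 24 h later. Controls were kept without ethanol. Whether the controls were fasted or gavaged with vehicle is not given in the sources used here, so ethanol, fasting and gavage cannot be told apart. The labels place all libraries in the same batch and name a mouse for each. The study's methods give more mice per group than the libraries labelled here, and how the sequenced mice were chosen is not given in the sources used here. The question was which liver genes differ in abundance after acute exposure.

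The matrix is built in layers. Fibrillar collagens form the tensile cables of portal tracts and scar, type IV collagen and laminins form basement membranes, and lysyl oxidases cross-link collagen and elastin. Metalloproteinases and ADAMTS proteases cut these proteins, and TIMPs inhibit the proteases. In liver, stellate cells and portal fibroblasts are known as main makers of fibrillar collagen, while hepatocytes, endothelial cells and macrophages contribute other members.

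Library totals ranged from 60514417 to 74210869 counts. The TMM factors, which correct for library composition, were 0.768 to 0.836 in ethanol and 1.26 to 1.27 in control libraries, so the scaling moves every fold change. Over all 16717 genes tested, the median log2 fold change came to -0.04 with TMM and to -0.71 when libraries were scaled by their totals alone. Low counts were not evenly spread: over the 6 libraries, a count of 4 occurred 4613 times, against 3037 for a count of 3 and 2799 for a count of 5, with further peaks at 8 and 12. The test was therefore also run on counts divided by 4: of the 24 members called below, Mmp8 and Col8a1 were then too low to test, and the others kept their call. The tissue label was checked on 14 hepatocyte markers, whose deposited FPKM summed to between 56700.1 and 58301 in ethanol and between 47225 and 54422 in control libraries.

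A gene was called a differentially expressed gene (DEG) at an adjusted p below 0.05 with an absolute log2 fold change above 1 (edgeR quasi-likelihood test, Benjamini-Hochberg adjustment over all genes tested). CPM values are TMM-scaled and serve to compare libraries. FPKM are the deposited values per gene length without TMM, and serve to compare genes. They are also printed per library for genes outside the members. The log2 fold changes beside them come from TMM-scaled counts and are not ratios of those FPKM. Among the 75 members tested, 9 rose (12.0%) and 15 fell (20.0%), against a background of 10.4% of all genes rising and 13.8% falling. These and the family counts include Mmp8 and Col8a1, which passed the filter on low counts only through the group where they are high. The share rising was near the background with all libraries and both limits. It was 14.1% against 8.76% of all genes without ethanol replicate 1, and 14.7% against 21.5% by the adjusted p without the fold limit. The share falling was above that of all genes in each setting tried, by a gap that ran from 10.5% against 9.88% without control replicate 3, 12.8% against 11.9% without ethanol replicate 1 and 13.3% against 11.6% with the length trend removed to 19.5% against 10.2% without control replicate 1 and 26.3% against 16.1% with counts divided by 4. The difference was not tested. Every ethanol library lay above every control library for 13 of the 75 members and below for 23, against 28.0% and 31.0% of all genes (59.0% without overlap in either direction). The share of members with every ethanol library above was lower than that of all genes, and the share below was near it. The members' median log2 fold change was -0.51, against -0.04 for all genes; that distance was not kept by limma on the deposited FPKM, where the medians were -0.21 against -0.31 on log2(FPKM + 1) and -0.69 against -0.61 on log2(FPKM + 0.1). Scaling by library totals alone gave 5 members up and 31 down, which is 6.67% and 41.3% of members beside 5.06% and 32.2% of all genes, and no called member turned direction. A whole-tissue value cannot tell fewer cells of a type from less RNA per cell.

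**Figure D1:**
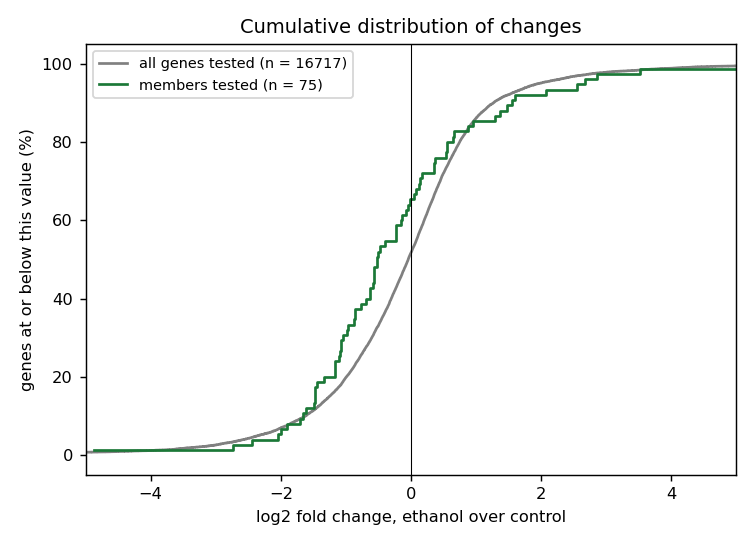
Cumulative share of genes (vertical axis, percent) at or below each log2 fold change of ethanol over control (horizontal axis, shown from -5 to 5), for the 75 members tested and all 16717 genes tested. The members' curve lies to the left over the middle of the range, with medians of -0.51 and -0.04; on log2(FPKM + 1) with limma the members' median was instead the higher, -0.21 against -0.31.

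The calls are given by family; the families were not tested against each other. ADAMTS proteases supplied 5 of the 9 members that rose, among 12 tested, and 2 of those that fell. Collagens supplied 8 of the 15 that fell, among 31 tested, and 1 that rose. Scaled by library totals, ADAMTS genes had 4 up and 4 down and collagens 0 up and 17 down. Under that scaling 5.06% of all genes rose and 32.2% fell, which is the background for every count by library totals given below. Leaving out 1 library at a time gave 4 to 5 ADAMTS genes up and 5 to 10 collagens down, the fewest without control replicate 2, control replicate 3 or ethanol replicate 2 and the most without control replicate 1. ADAMTS genes down ran from 1 (without ethanol replicate 1, control replicate 2 or control replicate 3) to 3 (without ethanol replicate 3), and collagens up from 0 (without ethanol replicate 3, control replicate 1 or control replicate 3) to 2 (without ethanol replicate 2) and 3 (without ethanol replicate 1). Laminins (11 tested) had 1 up and 2 down, metalloproteinases (12 tested) 1 up and 2 down, TIMPs (3 tested) 1 up, and lysyl oxidases (5 tested) 1 down. The laminin count down was 0 without ethanol replicate 3, control replicate 1 or control replicate 3, 1 without ethanol replicate 1 or control replicate 2 and 3 without ethanol replicate 2 or by library totals, where none rose. The metalloproteinase count down was 1 without ethanol replicate 1 or control replicate 3, 3 without ethanol replicate 2 or 3 and 5 by library totals. Of the fibrillins only Fbn1 had enough counts to be tested, and it was not called.

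**Figure D2:**
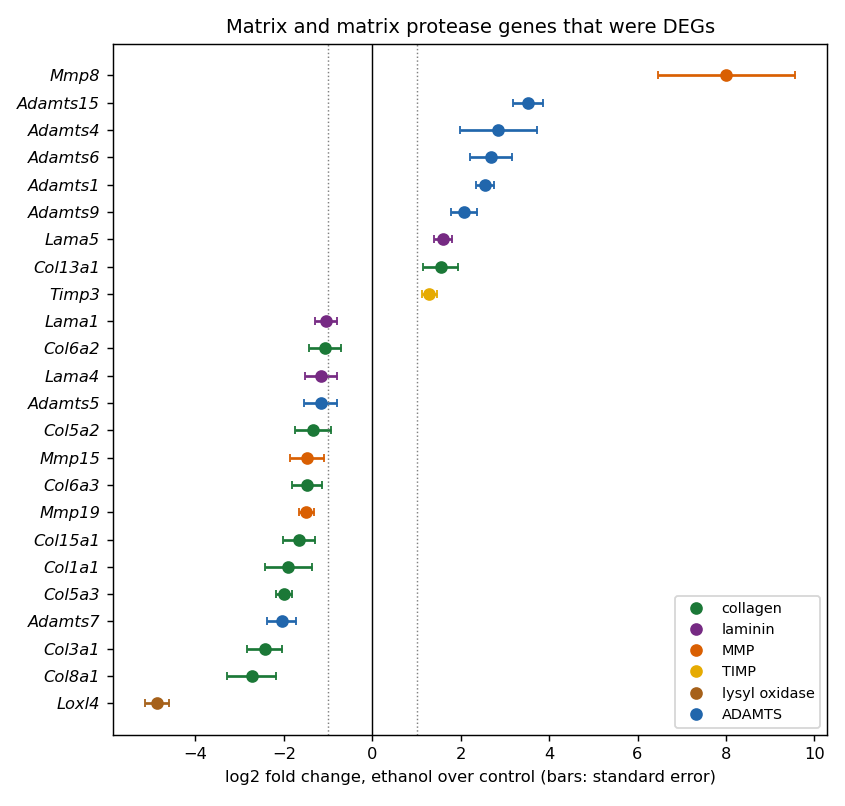
Log2 fold change of ethanol over control (horizontal axis, bars are standard errors, n = 3 per group) for the 24 members called as DEGs, coloured by family; dotted lines mark the fold limit of 1. Loxl4 has the lowest value at -4.86, and the position of Mmp8 is not a measured fold because its control libraries hold 0 counts.

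Levels were dominated by a single gene. Col18a1, whose product is a basement membrane collagen that carries endostatin, was at 79.3, 84.6 and 72.8 FPKM in ethanol and 126, 106 and 103 FPKM in control libraries, and made up 60.3% to 66.8% and 51.0% to 60.6% of the members' summed FPKM. Its direction depended on the scale: on TMM-scaled CPM the ranges overlapped (768, 761 and 712 against 749, 632 and 616, log2 fold change 0.17 ± 0.12 SE, adjusted p = 0.291), while scaling by library totals gave -0.50 (adjusted p = 0.0142). Mmp19 followed with a mean of 13.0 FPKM. Only 18 members reached a mean of 1 FPKM, and 57 reached 0.1.

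**Figure D3:**
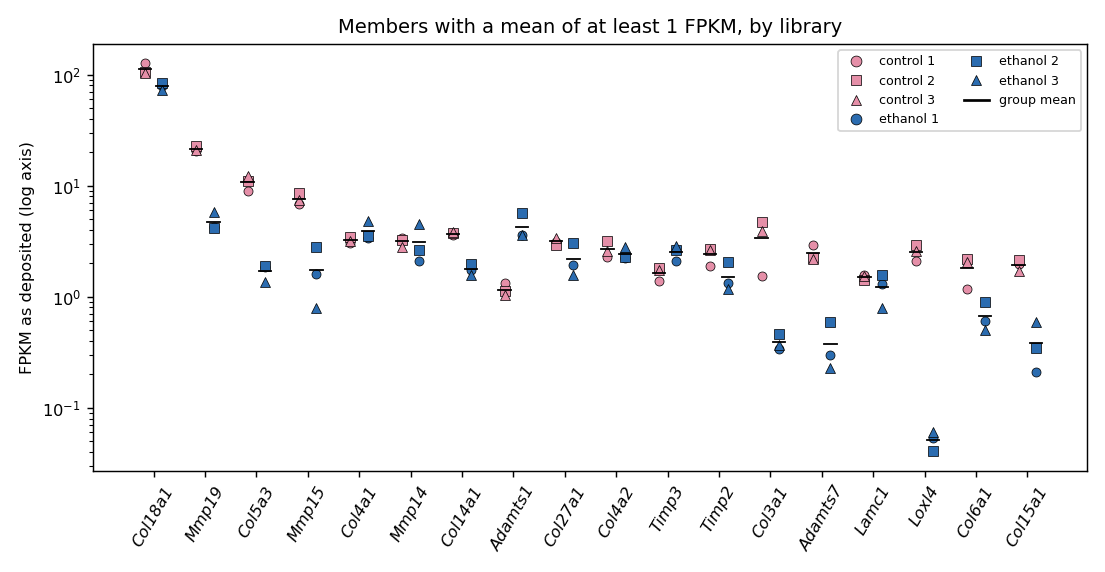
Deposited FPKM on a log axis for the 18 members with a mean of at least 1 FPKM, with 3 ethanol (blue) and 3 control (pink) libraries and group means as bars. Col18a1 stands above the rest, and Loxl4 falls from over 2 FPKM in every control library to at most 0.0599 in the ethanol libraries.

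The widest fall belonged to Loxl4, a lysyl oxidase of the amine oxidases that cross-link collagen and elastin. Loxl4 was at 0.330, 0.229 and 0.366 CPM in ethanol libraries and 7.44, 10.4 and 9.24 CPM in controls. The groups did not overlap, and the mean was 29.2-fold higher in controls (log2 fold change -4.86 ± 0.27 SE, adjusted p = 7.66e-05). The other lysyl oxidases overlapped between the groups: Lox, the founding enzyme, had a log2 fold change of 0.12 ± 0.59, Loxl1, known for elastin, -0.05 ± 0.44, Loxl2, which acts on type IV collagen, -0.07 ± 0.27, and Loxl3 -0.15 ± 0.25 (adjusted p from 0.651 to 0.933). Each of these 4 values changed sign under at least 1 alternative, and Lox reached only 0.774 CPM in any library.

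Fibrillar collagens supplied 4 of the 15 members that fell. Of 8 tested, 4 fell and none rose at the DEG limits, with a median log2 fold change of -1.10. Col3a1, the chain of type III collagen, was at 4.62, 5.82 and 5.11 CPM in ethanol libraries and 12.8, 39.1 and 32.4 CPM in controls (-2.44 ± 0.39, adjusted p = 0.00291). Every control library lay above every ethanol library, although control replicate 1 was well below the other two controls. Col5a3, a chain of type V collagen that regulates fibril diameter and the third member by mean FPKM, was at 17.5, 16.4 and 12.8 CPM against 51.9, 63.5 and 71.1 CPM (-2.0 ± 0.17, adjusted p = 0.000272), 3.99-fold higher in controls. Its 3 control values were more alike than those of Col3a1.

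Col1a1, the main chain of type I collagen, was at 1.77, 1.42 and 2.24 CPM in ethanol and 2.33, 11.4 and 6.55 CPM in control libraries (-1.90 ± 0.54, adjusted p = 0.0262). Control replicate 1 nearly touched the ethanol values, and the call was lost when ethanol replicate 1, ethanol replicate 2, control replicate 2 or control replicate 3 was left out (log2 fold change -1.93 to -1.30, adjusted p 0.0686 to 0.0899). Its partner chain Col1a2, named here after its values were seen, had overlapping groups (-0.86 ± 0.32, adjusted p = 0.0681). Col5a2, another type V chain, was at 1.16, 0.572 and 1.37 CPM against 1.70, 2.74 and 3.45 CPM (-1.34 ± 0.42, adjusted p = 0.0358). That call was lost without ethanol replicate 1, ethanol replicate 2, control replicate 2 or control replicate 3 (-1.45 to -1.06, adjusted p 0.0712 to 0.129). Col3a1 and Col5a2 are neighbours on chromosome 1, 24615 bp apart, on opposite strands, and both fell.

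Control replicate 1 stood apart for many members and for some marker lists. That library was the lowest control for 51 of the 75 members tested (68.0%), against 32.5% of all genes tested, and for 22 of the 31 collagens. A list of 10 activated stellate cell or myofibroblast markers, 9 of them tested, summed to 59.4, 59.8 and 41.3 CPM in ethanol and 38.4, 97.4 and 91.0 CPM in control libraries, with none called. Its defining marker Acta2, smooth muscle actin, was at 0.964, 1.13 and 0.595 FPKM in ethanol libraries and at 0.466, 7.17 and 3.63 FPKM in the 3 controls. Cholangiocyte markers showed the same low control (34.0, 71.7 and 79.5 CPM, against 73.1, 78.9 and 59.2 CPM in ethanol). That list shares Spp1 with the myofibroblast list, so the sums are not independent, and the part of Spp1 in them was not tested. Stellate cell markers were highest, not lowest, in control replicate 1 among controls and on TMM-scaled CPM were no lower in ethanol (185, 200.2 and 169 CPM against 155, 134 and 146 CPM, 0 of 15 called). That direction turned with the scale: their deposited FPKM summed to 45.3, 52.5 and 41.7 in ethanol and 60.1, 49.6 and 54.1 in control libraries. By library totals 4 of 15 were called down, where 32.2% of all genes were. With 1 library left out, 0 to 2 were called up (2 without ethanol replicate 1) and 0 to 1 down. Without control replicate 1, 5 of the 8 fibrillar collagens fell; without ethanol replicate 1, ethanol replicate 2, control replicate 2 or control replicate 3, 2 did. The part of these cell types in the collagen falls was not tested.

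**Figure D4:**
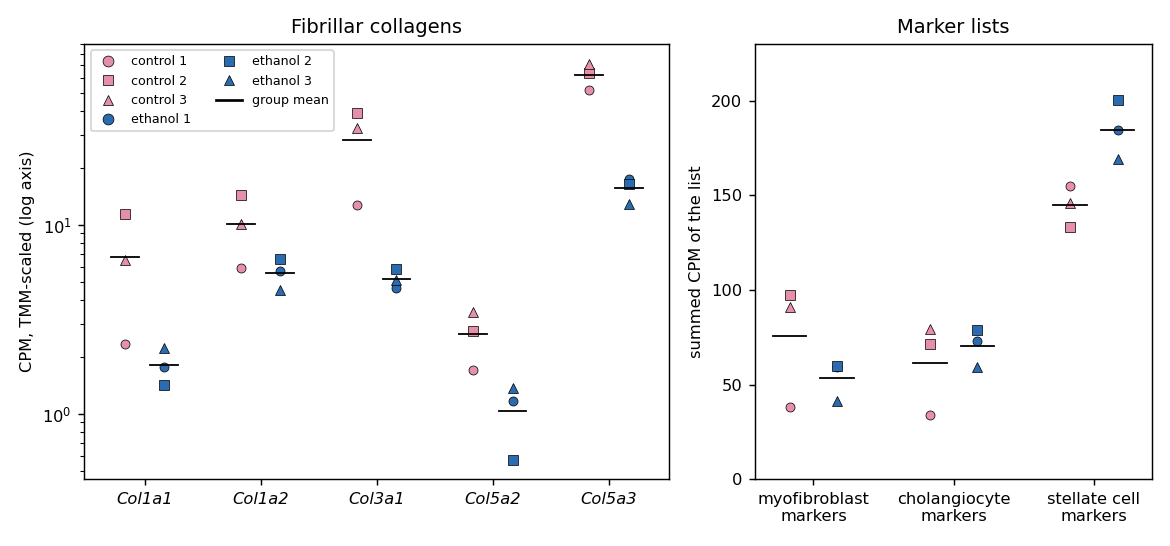
Left, TMM-scaled CPM (log axis) of 5 fibrillar collagen genes; right, summed CPM of 3 marker lists; points are the libraries and bars the group means. Control replicate 1 (pink circle) is the lowest control for these 5 collagens and for the myofibroblast and cholangiocyte lists, which share the gene Spp1.

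Microfibrillar and network collagens had 3 of 8 members down and none up, and 2 down without any one library but control replicate 1, where 4 were. By library totals 5 of 8 fell and none rose, beside 32.2% and 5.06% of all genes. Col8a1, a short-chain collagen of vessel walls, was low throughout, at 0.0695, 0.0654 and 0.0733 CPM in ethanol and 0.309, 0.604 and 0.498 CPM in controls (-2.73 ± 0.56; it passed the count filter through the control libraries alone, so its call is a description). Col6a3, the large chain of beaded type VI filaments, was at 1.88, 2.45 and 1.45 CPM against 3.54, 5.26 and 7.36 CPM (-1.48 ± 0.33, adjusted p = 0.0109). Both groups were separate for these genes. Col6a2, outside the naming rule and named because it completes the count, had a value of -1.07 ± 0.35 (adjusted p = 0.0438) and was called only with all libraries or without control replicate 1 (-1.19 to -0.66, adjusted p 0.0690 to 0.152 for the other 5 removals).

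Basement membrane genes did not move as a block. Col15a1, a close relative of Col18a1, was at 1.86, 2.85 and 5.26 CPM in ethanol and 10.6, 11.7 and 9.14 CPM in controls (-1.66 ± 0.36, adjusted p = 0.00982), and it was the only one of 8 basement membrane collagens called with all libraries; 2 fell without ethanol replicate 1 or ethanol replicate 3 and 4 by library totals, and 1 other rose without ethanol replicate 1, ethanol replicate 2 or control replicate 2. Col4a1, a core type IV chain, leaned the other way at 34.7, 33.7 and 50.0 CPM against 19.2, 22.0 and 20.0 CPM (0.95 ± 0.17, adjusted p = 0.00452), just inside the fold limit, and passed it without ethanol replicate 1, ethanol replicate 2 or control replicate 2 (1.01 to 1.05). Its partner Col4a2 was at 20.2, 19.3 and 25.6 CPM against 12.9, 17.7 and 14.5 CPM (0.53 ± 0.17, adjusted p = 0.0397). On deposited FPKM the groups overlapped for both chains.

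Col4a1 and Col4a2 are transcribed head to head on chromosome 8, and their promoter windows share 78 bases, which is why both are shown. Each window runs from 250 bases before to 50 after the start site, from RefSeq on GRCm38.p6; capitals mark the shared stretch, read on opposite strands.
Col4a1, chr8:11312777-11313076, minus strand: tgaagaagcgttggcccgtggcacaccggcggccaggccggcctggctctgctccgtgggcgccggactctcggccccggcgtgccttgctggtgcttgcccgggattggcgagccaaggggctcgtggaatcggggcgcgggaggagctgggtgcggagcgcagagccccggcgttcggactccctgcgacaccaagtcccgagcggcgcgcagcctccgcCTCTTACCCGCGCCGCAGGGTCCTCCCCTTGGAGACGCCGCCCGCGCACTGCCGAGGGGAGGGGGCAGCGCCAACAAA
Col4a2, chr8:11312555-11312854, plus strand: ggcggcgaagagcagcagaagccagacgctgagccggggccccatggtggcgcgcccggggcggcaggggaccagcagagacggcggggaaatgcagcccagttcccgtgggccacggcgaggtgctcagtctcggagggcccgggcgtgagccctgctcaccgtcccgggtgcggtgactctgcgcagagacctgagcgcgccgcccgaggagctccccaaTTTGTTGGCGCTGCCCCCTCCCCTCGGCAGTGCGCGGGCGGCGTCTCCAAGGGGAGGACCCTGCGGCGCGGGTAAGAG

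Among collagens that span the membrane or sit on fibrils, Col13a1, a transmembrane collagen of cell junctions, rose from 2.88, 2.78 and 2.63 CPM to 5.25, 5.28 and 13.8 CPM (1.55 ± 0.40, adjusted p = 0.0180). Ethanol replicate 3 was far above the other two. Without ethanol replicate 3 the value was 0.94 (adjusted p = 0.00259), inside the fold limit, and without any one control library the adjusted p was 0.0625 to 0.0691. It was the only one of 7 tested in this class that was called with all libraries; 2 rose without ethanol replicate 1, none without ethanol replicate 3 or any one control library, and by library totals none rose and 2 fell.

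Of the 11 laminin chains tested 8 were not called, and the shares called (9.09% up, 18.2% down) were near those of all genes. Lama5, the alpha chain of many adult basement membranes, rose from 4.45, 4.58 and 5.99 CPM to 18.5, 14.6 and 12.4 CPM (1.60 ± 0.20, adjusted p = 0.00125), a 3.02-fold higher mean with no overlap. Its value lay inside the fold limit when libraries were scaled by totals (0.93) and with limma on FPKM (0.38 and 0.81 for pseudocounts of 1 and 0.1). Lama4, an alpha chain of vessel walls, was at 0.817, 1.31 and 0.586 CPM in ethanol and 1.93, 2.41 and 1.76 CPM in controls (-1.17 ± 0.36, adjusted p = 0.0349). The Lama4 call held only without ethanol replicate 2; the other removals gave -1.26 to -0.92 with adjusted p from 0.0431 to 0.120. Lama1, best known from embryonic basement membrane, was at 1.30, 1.14 and 0.916 CPM against 2.47, 2.06 and 2.43 CPM (-1.05 ± 0.26, adjusted p = 0.0151), and lost the call without ethanol replicate 3, control replicate 1 or control replicate 3 (-1.02 to -0.91). The common partners Lamb2 and Lamc1 overlapped between groups (0.08 ± 0.23 and 0.36 ± 0.22), and both signs turned when libraries were scaled by totals. Fbn1, the main microfibril protein, also overlapped (-0.56 ± 0.33, adjusted p = 0.211), and Fbn2 was not tested.

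The 2 metalloproteinases of highest level fell. Mmp19, a secreted protease of basement membrane proteins, was at 20.6, 18.8 and 28.6 CPM in ethanol and 61.0, 68.0 and 62.4 CPM in controls (-1.49 ± 0.17, adjusted p = 0.000810), and its mean was 2.81-fold higher in controls. Mmp15, a membrane-type enzyme, was at 12.0, 19.5 and 5.94 CPM against 31.0, 39.4 and 34.0 CPM (-1.48 ± 0.38, adjusted p = 0.0186). No ethanol value reached the lowest control for either gene. The Mmp15 call was lost without ethanol replicate 1, control replicate 2 or control replicate 3 (-1.50 to -1.38, adjusted p 0.0548 to 0.0668). Mmp14, the membrane-type enzyme that activates pro-MMP2, was at 17.4, 20.2 and 37.5 CPM against 17.2, 16.4 and 14.3 CPM (0.65 ± 0.28, adjusted p = 0.10). Its value was 0.25 without ethanol replicate 3 and -0.026 when libraries were scaled by totals. The gelatinases Mmp2 and Mmp9 were tested and not called.

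Mmp8, the collagenase stored in neutrophil granules, was the metalloproteinase called higher with ethanol. It passed the count filter through the ethanol libraries alone, so its call follows from that filter and is given as a description. It had 12, 11 and 53 counts in ethanol libraries and 0 in all 3 controls. Against a floor of 3 counts in each control library it was at least 12.6-fold higher, and at least 5.41-fold higher without ethanol replicate 3. With counts bunching at multiples of 4, that floor is less than 1 step. Neutrophil markers were mixed. Of 12 listed, 6 were tested and 5 were called higher, but Il1r2, Retnlg and S100a8 also passed the filter through the ethanol libraries alone. Cxcr2 passed the filter in 3 ethanol libraries and 1 control library. With counts divided by 4, 1 of 2 still testable was called. The whole list summed to 3.89, 5.05 and 16.8 CPM in ethanol and 1.22, 1.93 and 1.49 CPM in control libraries. S100a8, an abundant neutrophil cytosolic protein, was at 0.584, 0.723 and 3.02 FPKM against 0, 0 and 0.0785. Ethanol replicate 3 was highest for Mmp8 and for this list. Csf3r, a receptor, overlapped between the groups (0.37 ± 0.68). The granule genes Mpo, Elane, Ngp, Ltf and Camp and the surface antigen gene Ly6g were too low to test, and Elane was listed at 0 in every ethanol library against 0.0656, 0.108 and 0.145 FPKM in controls. The part of neutrophil number in the Mmp8 value was not tested.

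Among the inhibitors, Timp3, which binds the matrix and inhibits ADAMTS as well as metalloproteinases, rose from 9.48, 12.5 and 12.1 CPM to 23.6, 27.4 and 32.4 CPM (1.29 ± 0.17, adjusted p = 0.00131). The groups were separate. It is transcribed within Syn3 on the other strand, and whether counting used strand is not given in the sources used here. Scaled by library totals the Timp3 value was 0.62 (adjusted p = 0.0156), inside the fold limit. Timp1, an inhibitor known to be induced in injured liver, was near the detection limit at 0.313, 0.0491 and 0.202 CPM against 0, 0.171 and 0.0486 CPM (1.37 ± 1.23, adjusted p = 0.398). Timp2 overlapped (-0.01 ± 0.23), and Timp4 was not tested.

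The ADAMTS proteases held 5 of the 9 members that rose. Adamts1, a protease of aggrecan and versican, was at 26.4, 38.7 and 26.4 CPM in ethanol and 5.91, 5.05 and 4.68 CPM in controls. Its mean was 5.85-fold higher with ethanol (2.55 ± 0.20, adjusted p = 0.000198). Adamts15, a relative that also cuts versican, was at 6.78, 6.28 and 12.5 CPM against 0.586, 0.840 and 0.789 CPM (3.53 ± 0.34, adjusted p = 0.000436). Adamts9, a protease that cuts versican and aggrecan, was at 5.35, 6.61 and 4.25 CPM against 0.884, 1.46 and 1.52 CPM (2.07 ± 0.30, adjusted p = 0.00186). Every ethanol library was above every control library for these genes.

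Adamts6, which acts on microfibrils, was at 3.55, 4.10 and 1.56 CPM against 0.639, 0.499 and 0.291 CPM (2.68 ± 0.47, adjusted p = 0.00413). Adamts4, an aggrecanase, was at 1.25, 0.556 and 6.32 CPM against 0.288, 0.472 and 0.364 CPM (2.85 ± 0.88, adjusted p = 0.0349). Ethanol replicate 3 set its size: without it the value was 1.28 (adjusted p = 0.0703), and without any one control library the adjusted p was 0.0900 to 0.119. Adamts9 overlaps 9530026P05Rik and A730049H05Rik, and Adamts7 overlaps Tbc1d2b, each on the opposite strand.

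The fall within the family came from Adamts7 and Adamts5. Adamts7, a protease of cartilage oligomeric matrix protein, was at 2.66, 4.79 and 2.02 CPM in ethanol and 15.5, 12.0 and 11.8 CPM in controls (-2.05 ± 0.33, adjusted p = 0.00285). Adamts5, the other main aggrecanase, was at 0.452, 0.572 and 0.715 CPM against 0.991, 1.17 and 1.76 CPM (-1.17 ± 0.37, adjusted p = 0.0381). The Adamts5 call held only without ethanol replicate 3; the other removals gave -1.34 to -0.90 with adjusted p from 0.0525 to 0.156. Adamts10 (-0.97 ± 0.27, adjusted p = 0.0242) lay just inside the fold limit and passed it without ethanol replicate 3 (-1.19) or control replicate 1 (-1.14). Of the 5 tested members known to cut hyalectans, the large chondroitin sulphate proteoglycans, 4 rose and Adamts5 fell. Without any 1 control library, 3 rose and 0 fell. It was 4 and 0 without ethanol replicate 1 or 2, and 3 and 1 without ethanol replicate 3. The summed FPKM of all 6 listed members, the untested Adamts8 included, was 4.56, 6.63 and 5.62 against 1.64, 1.61 and 1.52. Most of that sum was Adamts1, at 3.61, 5.69 and 3.56 FPKM in ethanol and 1.32, 1.12 and 1.03 FPKM in control libraries. Adamts1 and Adamts5 lie 53060 bp apart on the same strand of chromosome 16, with opposite calls.

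**Figure D5:**
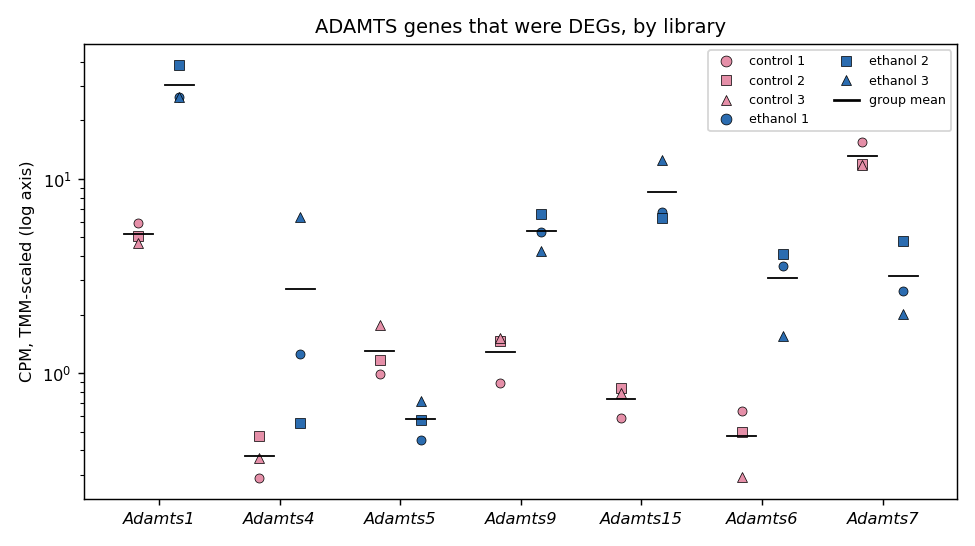
TMM-scaled CPM (log axis) of the 7 ADAMTS genes called as DEGs, with 3 ethanol (blue) and 3 control (pink) libraries and group means as bars. The groups do not overlap for any of the 7, and ethanol replicate 3 stands apart for Adamts4.

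Promoter windows of the same 300 bases were found in RefSeq (GRCm38.p6) for 66 of the 98 members. Adamts1 and Loxl4 are shown as the rising and the falling member with calls that held in all 17 alternatives, of which the adjusted p alone cannot lose a call, and the lowest adjusted p in each direction. Capitals mark TATAAA, the TATA box, and GGGCGG, the GC box.
Adamts1, chr16:85803064-85803363, minus strand: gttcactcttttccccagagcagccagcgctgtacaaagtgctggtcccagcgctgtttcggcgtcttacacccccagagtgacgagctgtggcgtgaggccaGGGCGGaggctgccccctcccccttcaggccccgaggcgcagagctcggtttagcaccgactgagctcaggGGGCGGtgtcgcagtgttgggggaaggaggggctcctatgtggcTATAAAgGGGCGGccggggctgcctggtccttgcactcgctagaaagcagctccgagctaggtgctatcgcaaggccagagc
Loxl4, chr19:42612757-42613056, minus strand: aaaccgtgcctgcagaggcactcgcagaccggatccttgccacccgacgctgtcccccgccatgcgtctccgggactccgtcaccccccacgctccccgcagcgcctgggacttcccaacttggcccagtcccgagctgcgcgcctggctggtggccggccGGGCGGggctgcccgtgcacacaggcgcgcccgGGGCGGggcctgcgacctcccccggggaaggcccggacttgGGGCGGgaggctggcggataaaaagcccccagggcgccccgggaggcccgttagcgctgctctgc

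Adamts1 holds TATAAA from -32 to -27 and 3 GC boxes, and Loxl4 holds 3 GC boxes and no TATAAA on either strand. Over both strands, TATAAA occurred in 13.6% of all 32851 promoters and in 12 of the 66 members with a window. These members had 72 windows, and a member was counted if any of its windows matched, while the percentages are per promoter. It occurred in 3 of the 6 rising members with a window (Adamts1, Col13a1 and Mmp8) and in 1 of 8 falling members (Col3a1). The match began at -237 in Col13a1 and at -117 in Col3a1. Mmp8, which passed the count filter through the ethanol libraries alone, held it on the other strand as TTTATA, from -3 to 2. GGGCGG occurred in 35.7% of all promoters, in 43 of the 66 members with a window, in 4 of 6 rising and in 5 of 8 falling members. The AP-1 letters TGANTCA (7.81% of all promoters), the STAT letters TTCNNNGAA (8.30%), the E-box CACGTG (7.15%) and the glucocorticoid response element ACANNNTGT (6.85%) occurred in no window of these 14 members. These are matches of letters, and they describe only these windows.

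Of 24 listed genes that make and process collagen, 21 were tested. Of these, 4 fell and none rose, with a median log2 fold change of 0.10, and only P4ha1 was called without ethanol replicate 1, control replicate 2 or control replicate 3. P4ha1, a prolyl hydroxylase subunit that stabilises the collagen helix, was at 0.781, 0.773 and 0.560 FPKM in ethanol and 4.24, 3.67 and 4.19 FPKM in controls (-1.84 ± 0.17, adjusted p = 0.000366). Serpinh1, the collagen chaperone HSP47, was at 1.19, 2.04 and 1.22 FPKM against 3.77, 5.38 and 5.79 FPKM (-1.08 ± 0.25, adjusted p = 0.0128), and lost the call without ethanol replicate 1 or 3 or control replicate 2 or 3 (-1.03 to -0.96). Among 31 proteoglycans and matrix glycoproteins, 2 rose and 2 fell, and removal of 1 library gave 1 to 2 up and 1 to 3 down (1 up without ethanol replicate 3 or any one control; 1 down without ethanol replicate 1, control replicate 2 or control replicate 3; 3 down without control replicate 1). By library totals it was 0 up and 8 down of 31, beside 5.06% and 32.2% of all genes. Nid1, which links laminin to type IV collagen, was at 2.001, 1.79 and 4.02 FPKM against 1.29, 1.36 and 1.33 FPKM (1.66 ± 0.33, adjusted p = 0.00640). Its paralogue Nid2 was at 0.297, 0.436 and 0.505 FPKM against 3.01, 2.96 and 2.72 FPKM (-2.13 ± 0.22, adjusted p = 0.000533). The pair moved in opposite directions.

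The plasminogen system, which activates several metalloproteinases, had 3 of 8 genes up and 1 down, none down without any one control library, and 2 up and 2 down by library totals. Plaur, the urokinase receptor, was at 0.659, 0.828 and 1.58 FPKM against 0.0317, 0.0793 and 0.0900 FPKM (4.52 ± 0.54, adjusted p = 0.000968). Every ethanol library lay above every control library for this gene. Of 16 ADAM proteases and protease regulators, 4 rose and 1 fell with all libraries. The count up was 1 without control replicate 1, control replicate 3 or ethanol replicate 2, 2 without control replicate 2 or ethanol replicate 1, and 3 without ethanol replicate 3, where 4 fell. Scaled by totals it was 1 up and 7 down of 16, beside 5.06% and 32.2% of all genes. The gene with the largest rise was Rhbdf2, a partner of the sheddase ADAM17, at 8.07, 9.48 and 5.24 FPKM against 1.83, 2.17 and 1.74 FPKM (2.65 ± 0.21, adjusted p = 0.000218).

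Receptors for collagen and laminin had 3 of 16 up and 1 down, 2 up without ethanol replicate 3 or any one control library, 2 down without ethanol replicate 1 or 2, and 1 up and 5 down by library totals. The counts by library totals in this paragraph stand beside 5.06% of all genes rising and 32.2% falling. The receptors' share falling by that scaling was near that of all genes. The syndecan Sdc4, a heparan sulphate co-receptor, was at 340, 412 and 190 FPKM against 113, 99.3 and 101 FPKM (2.25 ± 0.26, adjusted p = 0.000777). In the TGF-beta pathway, a known inducer of matrix genes, 3 of 19 rose and none fell with all libraries; 4 rose and 1 fell without ethanol replicate 3, and by library totals 1 rose and 2 fell. Skil, a transcriptional repressor within that pathway, was at 3.33, 4.01 and 3.97 FPKM against 1.34, 1.17 and 1.20 FPKM (2.28 ± 0.12, adjusted p = 7.33e-05), and the receptor Tgfbr2 was at 7.63, 5.36 and 4.22 FPKM against 3.11, 2.70 and 3.14 FPKM (1.62 ± 0.22, adjusted p = 0.00154). Tgfbr2 and Nid1 were inside the fold limit when libraries were scaled by totals (0.95 and 0.98). Among markers of other liver cells, sinusoidal endothelial genes had 2 of 15 up and 5 down (1 and 7 by library totals), Kupffer cell genes 1 of 12 up (0 without any one library but ethanol replicate 3, and 0 up and 4 down by library totals), portal fibroblast and mesothelial genes 1 of 11 down (0 without control replicate 2 or 3, 4 without ethanol replicate 2, 3 by library totals), cholangiocyte genes 1 of 9 up (2 up and 1 down without ethanol replicate 3, 1 up and 1 down without control replicate 1, 1 up and 2 down by library totals), and hepatocyte genes 4 of 14 up (2 without any one control library, 0 when scaled by totals) and 1 down (G6pc1).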

How the data were processed

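Whole-liver total RNA was sequenced from 3 ethanol and 3 control mice. The authors deposited read counts and FPKM per Ensembl gene for each library; aligner, counter and strand setting are not given in the sources used here. The submitters' processing notes name GRCm38 and mm10, but only 502 of 27049 shared genes have the deposited coordinates in the GRCm38 annotation, so the build of the table is unresolved and its coordinates served only for distances and overlaps. In the table, 1 column of per-sample values matched no label and was not used. Each p-value measures the spread between mice.

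From the counts as deposited, genes were filtered with filterByExpr, scaled by TMM and tested with edgeR 4.0.16 (glmQLFit, glmQLFTest) in R 4.3.3, with adjustment over 16717 genes; standard errors are the log2 fold change over the root of F. The code was checked on simulated data. DESeq2 1.42.0 and limma 3.58.1 on log2(FPKM + 1) and log2(FPKM + 0.1), at a mean FPKM of at least 0.1, were alternatives, as were other scalings, no filter, a loess trend on gene length, a replicate block, the adjusted p without the fold limit and each library left out; counts divided by 4 were added after seeing the data. Named members are the DEGs (up to 8 per family), the 3 members of highest FPKM per family and all TIMPs, lysyl oxidases and fibrillins. Up to 4 genes were named per other list, save the neutrophil markers, where Csf3r and the untested genes were also named. Members, lists and promoter examples were chosen with earlier results of these data known. Library totals and the bunching of low counts at multiples of 4 limit the precision of low genes. Some items are not reported here.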

Additional observations from a re-analysis of the deposited data

How the results depend on the processing

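Of the 24 members called, 7 (Adamts1, Adamts7, Col15a1, Col3a1, Col5a3, Loxl4 and Mmp19) kept their call in all 17 alternatives, and none of the 24 turned direction. The adjusted p alone is 1 of the 17, and a call cannot be lost there. Mmp8 and Col8a1, which passed the count filter through 1 group alone, say nothing of stability. The counts of members up and down were 9 and 15. Scaling by library totals gave 5 and 31 with a median of -1.18 (all genes -0.71). limma gave 1 and 7 with a median of -0.21 (all genes -0.31) on log2(FPKM + 1), and 3 and 21 with a median of -0.69 (all genes -0.61) on log2(FPKM + 0.1), so the members' median below that of all genes turned or nearly vanished there; 57 members were tested, and the cause was not tested. The median was -0.61 with upper quartile scaling, -0.35 with the length trend removed (11 up, 10 down) and -0.22 with counts divided by 4, where 57 members were tested. Leaving out 1 library gave 7 to 11 up, 8 to 15 down (8 without control replicate 3) and medians of -0.61 to -0.33.

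Reversals were limited to members that were not called. By library totals and by limma with a pseudocount of 1 and of 0.1, values were -0.50, -0.50 and -0.50 for Col18a1, -0.58, -0.25 and -0.49 for Lamb2, -0.30, -0.19 and -0.33 for Lamc1, -0.55, -0.055 and -0.24 for Lox, and -0.026, -0.061 and -0.093 for Mmp14. Lamb2 was -0.017 with upper quartile scaling. With the length trend removed, Loxl1 was 0.071, Loxl2 0.11, Loxl3 0.020 and Timp2 0.16, and Timp2 was 0.0010 with counts divided by 4. Over the libraries left out, Lamb2 ran from -0.10 to 0.24, Lox from -0.30 to 0.43, Loxl1 from -0.37 to 0.37, Loxl2 from -0.23 to 0.10 and Timp2 from -0.24 to 0.13. The cause of these differences was not tested.

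No pairing by replicate number was seen: deviations from the group mean in same-numbered libraries had correlations of -0.0415, -0.0267 and -0.00753. Values near 0 cannot exclude a pairing. A replicate block gave 8 members up and 11 down and turned Loxl1 to 0.043; fewer residual degrees of freedom remain in that fit.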
